A study of Rattus norvegicus with 4 samples.

Results

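The 10 genes described here are core parts and close outputs of the circadian clock in rat adipose tissue: Arntl, Clock, Npas2, Per1, Per2, Per3, Cry1, Nr1d1, Nr1d2 and Dbp. They were chosen by symbol from the 32883 genes of the deposited count matrices, and each symbol matched 1 gene. The choice was made with earlier results of these data known. In the clock, ARNTL (also called BMAL1) pairs with CLOCK or NPAS2 and switches on genes that carry E-boxes, among them Per, Cry, Nr1d and Dbp genes. PER and CRY proteins then block that pair, and the receptors NR1D1 and NR1D2 (REV-ERB alpha and beta) shut off Arntl and Npas2. Because of these loops, Arntl and Npas2 transcripts peak at about the opposite phase of the day from Per2 transcripts in peripheral tissues, and brown fat is among the tissues with a strong rhythm.

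Nuclei came from snap-frozen thoracic aorta perivascular adipose tissue (taPVAT), the brown-like fat around the aorta, and from subscapular brown adipose tissue (BAT). All animals were untreated male rats of the SS/HsdMcwiCrl strain, the Dahl salt-sensitive (SS) rat, aged 16 weeks, housed at 22 °C with 12 h of light and 12 h of dark, and killed with pentobarbital. Each tissue has 2 libraries, replicate 1 and replicate 2, and the tissue is the only group label. The labels used here do not give the hour of collection, what a replicate number marks, or whether 1 rat gave both tissues, so p-values measure the spread between 4 libraries, and 2 libraries of the same number may share a rat.

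Promoter sequences are shown first, since the clock loops act through short motifs in them. RefSeq windows of 300 bases (250 before to 50 after a gene's start, build GRCr8) were matched for 9 of the 10 genes in 11 windows, with Arntl listed as Bmal1 and no window matched for Cry1. The motifs searched on both strands were CACGTG (E-box), CACGTT (E-prime box), TAGGTCA (the core bound by ROR and REV-ERB receptors), TTANGTAA (D-box, bound by DBP and NFIL3), TGACGTCA (full cAMP response element) and TGACGT (its core, which lies inside the full element). The 4 windows with a match are printed below up to the start site, 5′ to 3′ on the gene's strand, with matches in capitals. They are Arntl at chr1:176766078-176766327 (plus strand), Per2 at chr9:99496994-99497243 (minus strand), the first Nr1d1 window at chr10:84231813-84232062 and the second Nr1d1 window at chr10:84229455-84229704 (both minus strand).

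Arntl: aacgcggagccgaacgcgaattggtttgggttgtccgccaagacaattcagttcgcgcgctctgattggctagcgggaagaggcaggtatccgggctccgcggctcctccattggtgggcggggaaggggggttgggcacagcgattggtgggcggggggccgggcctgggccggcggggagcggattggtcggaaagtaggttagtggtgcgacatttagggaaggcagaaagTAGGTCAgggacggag

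Per2: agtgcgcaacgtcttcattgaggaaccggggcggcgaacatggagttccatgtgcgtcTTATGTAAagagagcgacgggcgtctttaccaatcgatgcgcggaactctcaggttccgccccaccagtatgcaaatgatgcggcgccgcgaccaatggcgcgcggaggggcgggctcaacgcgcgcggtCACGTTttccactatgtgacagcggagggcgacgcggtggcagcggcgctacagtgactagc

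Nr1d1 window 1: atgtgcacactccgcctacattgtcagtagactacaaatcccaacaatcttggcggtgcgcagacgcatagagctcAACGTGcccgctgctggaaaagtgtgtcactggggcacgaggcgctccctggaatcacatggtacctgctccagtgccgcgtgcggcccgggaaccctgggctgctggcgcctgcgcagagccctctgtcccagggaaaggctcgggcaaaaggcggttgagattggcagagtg

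Nr1d1 window 2: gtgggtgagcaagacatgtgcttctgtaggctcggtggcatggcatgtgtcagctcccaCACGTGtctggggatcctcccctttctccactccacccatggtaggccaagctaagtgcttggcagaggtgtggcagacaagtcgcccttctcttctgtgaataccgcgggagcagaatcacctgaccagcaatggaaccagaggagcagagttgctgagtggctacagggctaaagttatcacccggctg

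The Arntl window held TAGGTCA, which starts 16 bases before the start site, and 2.63% of all 33469 windows held that motif. The Per2 window held an E-prime box 62 bases and a D-box 192 bases before the start site. E-prime boxes were in 4.83% and D-boxes in 2.24% of all windows. The first Nr1d1 window held an E-prime box on the opposite strand, and the second held an E-box, a motif present in 6.42% of all windows. Neither cAMP motif was in a window of the 9 genes, against 1.83% of all windows for the full element and 7.94% for its core. A match describes letters only, and no binding was measured.

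The libraries held 14765 to 44637 barcodes, against 10000 nuclei aimed at per the labels, and 12336 to 42979 nuclei had at least 500 detected genes. Total unique molecular identifier (UMI) counts were 157446484 and 158140959 in the replicate 1 libraries of taPVAT and BAT, and 63654436 and 92939355 in their replicate 2 libraries. The total thus moved with the replicate number, while the median UMI count per barcode did not (2972 and 3698 in replicate 1, 4027 and 2602 in replicate 2), and the part of depth in the results below was not tested. Each pair of libraries shared 126 to 424 barcode sequences. Nuclei were sorted into cell classes by marker genes, and UMIs were summed per library and class and given as counts per 1000000 UMIs of that sum (CPM). Adipocyte sums held 53575797 to 132812236 UMIs from 9689 to 33253 nuclei, and their 12 adipocyte markers summed to 22666 to 23807 CPM. Ucp1, the brown fat heat protein, was at 453 to 1539 CPM in adipocytes of the 4 libraries.

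In adipocytes, 5 of the 10 clock genes differed by replicate number and none was called for tissue. Replicate 2 over replicate 1 was tested over all genes with edgeR's quasi-likelihood test on the 4 adipocyte sums, 2 libraries against 2. The 2 libraries of a number are 1 of taPVAT and 1 of BAT, so their spread in this fit holds the tissue difference. If a number marks 1 rat, which the labels do not say, each p-value for number compares 1 rat with 1 rat. Of the 10 genes, 3 rose (Per1, Per2 and Cry1) and 2 fell (Npas2 and Clock) at an adjusted p under 0.05. DESeq2 called 7 (Arntl and Nr1d1 in addition), against 13.9% of the genes it tested. edgeR with the tissue as a term called 8, all but Nr1d2 and Per3, against 22.9%. In the fit without that term, over all 16069 genes tested, 11.9% were called, with 5.98% higher and 5.94% lower. In CPM, 8 of the 10 genes had replicate 1 and replicate 2 libraries that did not overlap, a pattern that 61% of all genes tested also showed. The median absolute log2 fold change over all genes was 0.40, and 0.40% of genes had a larger one than Npas2, 2.53% than Per2 and 7.29% than Cry1.

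Of the 3 activators, Npas2 and Clock fell in replicate 2, and Arntl did not pass. Npas2, the alternative partner of ARNTL, was at 98.2 CPM in taPVAT replicate 1 and 45.7 CPM in BAT replicate 1, against 8.12 CPM in taPVAT replicate 2 and 7.37 CPM in BAT replicate 2. Both replicate 2 libraries were far below both replicate 1 libraries. The drop was 12.1-fold in taPVAT (counting interval 10.995 to 13.3) and 6.20-fold in BAT (5.68 to 6.77). Npas2 fell by 3.13 ± 0.38 (SE) on the log2 scale (edgeR adjusted p = 0.0151, n = 2 and 2 libraries), and it kept its call in all 12 alternatives, at log2 fold changes of -3.56 to -2.48.

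Clock, the usual partner of ARNTL, was at 148 and 150.7 CPM in replicate 1 of taPVAT and BAT and at 96.8 and 88.9 CPM in replicate 2. The groups did not overlap, and Clock fell by 0.59 ± 0.14 (SE) on the log2 scale (edgeR adjusted p = 0.0488). That call was lost without taPVAT replicate 1 (adjusted p = 0.138), without BAT replicate 1 (0.209) and without BAT replicate 2 (0.1004). Arntl, the core activator, was at 33.0 and 24.1 CPM in replicate 1 and at 16.1 and 9.22 CPM in replicate 2. Its replicate 2 libraries were both lower, by 2.05-fold in taPVAT and 2.61-fold in BAT, with a fitted log2 fold change of -1.08 ± 0.32 (SE) that did not pass (edgeR adjusted p = 0.0782). Arntl did pass with DESeq2 (adjusted p = 0.00612), without a filter on low counts (0.0461) and without taPVAT replicate 2 (0.0254).

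**Figure D1:**
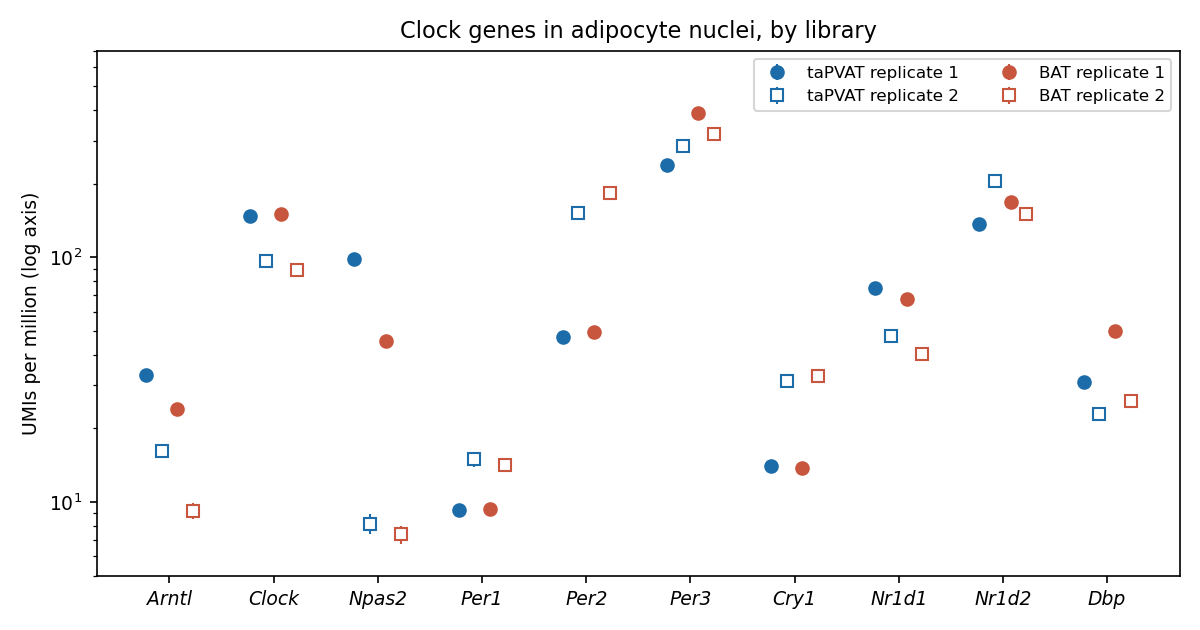
CPM on a log axis for the 10 clock genes in adipocyte nuclei of the 4 libraries; colours mark tissues, filled circles replicate 1, open squares replicate 2, and bars the 95% counting interval where it is wider than the symbol. Both replicate 2 libraries lie below both replicate 1 libraries for Npas2 (8.12 and 7.37 against 98.2 and 45.7) and above them for Per2 (152.4 and 183.2 against 47.5 and 49.6).

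The repressors Per1, Per2 and Cry1 were higher in replicate 2. Per2, a PER protein gene, was at 47.5 CPM in taPVAT replicate 1 and 49.6 CPM in BAT replicate 1, against 152.4 CPM in taPVAT replicate 2 and 183.2 CPM in BAT replicate 2. Libraries of the same number lay close together across the tissues. The ratio was 3.21-fold in taPVAT (counting interval 3.10 to 3.32) and 3.69-fold in BAT (3.58 to 3.80). Per2 rose by 1.88 ± 0.15 (SE) on the log2 scale (edgeR adjusted p = 0.00732), with a call in all 12 alternatives.

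Cry1, which encodes a partner of PER proteins, was at 14.1 and 13.8 CPM in replicate 1 of taPVAT and BAT and at 31.3 and 32.7 CPM in replicate 2. The 2 tissues were nearly level at each number. Cry1 rose by 1.29 ± 0.13 (SE) on the log2 scale (edgeR adjusted p = 0.0132), and all 12 alternatives called it. Per1, the PER gene that also answers to glucocorticoids and cAMP, was at 9.30 and 9.37 CPM in replicate 1 and at 14.9 and 14.2 CPM in replicate 2. Per1 rose by 0.73 ± 0.16 (SE) on the log2 scale (edgeR adjusted p = 0.0397), but no call was left when any 1 library was taken out: the adjusted p was 0.150 without taPVAT replicate 1, 0.0892 without taPVAT replicate 2, 0.185 without BAT replicate 1 and 0.0693 without BAT replicate 2.

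Per3 did not follow Per1 and Per2. It was at 237.7 CPM in replicate 1 of taPVAT and 285.4 CPM in its replicate 2, but in BAT at 388.0 CPM in replicate 1 and 319.0 CPM in replicate 2. The replicate 2 library was the higher one in taPVAT (1.20-fold, counting interval 1.18 to 1.22) and the lower one in BAT (0.822-fold, 0.810 to 0.835). The fitted log2 fold change was 0.04 ± 0.24 (SE; edgeR adjusted p = 0.929). The median CPM ratio over all genes tested was -0.13 on the log2 scale in taPVAT and -0.02 in BAT, so Per3 stood above that median in taPVAT and below it in BAT.

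Of the REV-ERB genes, Nr1d1 was at 75.1 and 67.8 CPM in replicate 1 of taPVAT and BAT and at 47.6 and 40.2 CPM in replicate 2. Both replicate 2 libraries were lower. The fitted log2 fold change of -0.61 ± 0.16 (SE) did not pass (edgeR adjusted p = 0.063), while Nr1d1 passed with DESeq2 (adjusted p = 0.0140) and without taPVAT replicate 2 (0.0377). Nr1d2 was at 137.4 and 168.9 CPM in replicate 1 of taPVAT and BAT and at 205.5 and 151.1 CPM in replicate 2. Its replicate 2 library was 1.496-fold higher in taPVAT and 1.12-fold lower in BAT, so the groups overlapped (log2 fold change 0.32 ± 0.21 SE, edgeR adjusted p = 0.365). Dbp, an output activator that binds D-boxes, was at 31.0 and 50.1 CPM in replicate 1 of taPVAT and BAT and at 23.0 and 25.9 CPM in replicate 2. Both replicate 2 libraries were lower than both replicate 1 libraries, by 1.35-fold in taPVAT and 1.94-fold in BAT, with a log2 fold change of -0.64 ± 0.23 (SE) that did not pass (edgeR adjusted p = 0.125). Without taPVAT replicate 1, Dbp passed at -0.95 (adjusted p = 0.0461).

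Ratios of UMI counts within a library do not depend on how libraries are scaled. In adipocytes, Per2 UMIs per Npas2 UMI were 0.483 in taPVAT replicate 1 (6047 over 12511 UMIs) and 1.09 in BAT replicate 1 (6589 over 6063 UMIs). The same ratio was 18.8 in taPVAT replicate 2 (8166 over 435 UMIs) and 24.9 in BAT replicate 2 (13648 over 549 UMIs). Both replicate 2 libraries had a far higher ratio than both replicate 1 libraries. Per2 UMIs per Arntl UMI were 1.44 and 2.06 in replicate 1 of taPVAT and BAT and 9.45 and 19.9 in replicate 2. Dbp UMIs per Per2 UMI were 0.653 and 1.01 in replicate 1 and 0.151 and 0.141 in replicate 2.

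Other values also differed by replicate number in adipocytes. A check list of 6 brown fat genes summed to 4570 CPM in taPVAT replicate 1 and 3725 CPM in BAT replicate 1, and to 15159 CPM and 13684 CPM in the replicate 2 libraries. None of its genes was at 0, and its largest member in 3 libraries was Ppargc1a (Ucp1 in BAT replicate 1), a coactivator that is also known to switch on Arntl. Ppargc1a was at 3133 and 1502.5 CPM in replicate 1 and 14020.1 and 12283 CPM in replicate 2. Ucp1 went the other way, at 937 and 1539 CPM in replicate 1 and 453 and 654 CPM in replicate 2. The sum of 5 skeletal muscle markers was 49.0 and 52.7 CPM in replicate 1 and 167 and 177 CPM in replicate 2, of which Actn2 made up 45.9 to 174 CPM. Its other markers (Neb, Ryr1, Myh4 and Ckm) were at 2.82 CPM or less each, with none at 0. The 10 myeloid markers summed to 59.0 and 76.4 CPM in replicate 1 of taPVAT and BAT and to 27.2 and 23.5 CPM in replicate 2, with none at 0. The part of these lists in the clock gene values was not tested.

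Across cell classes, the summed levels of Per2, Cry1 and Nr1d1 each had 1 direction in all tissue and class pairs before adipocyte RNA was subtracted, and not after it. The comparison covered 8 classes with at least 20 nuclei in every library (adipocytes, vascular endothelial cells, fibroblasts, mural cells, myeloid cells, T or NK lymphocytes, B lymphocytes and Schwann cells), which gives 16 pairs of a tissue and a class. In CPM, Per2 and Cry1 were higher in replicate 2 in 16 of 16 pairs, and Nr1d1 was lower in 16 of 16. The smallest Cry1 fold was 1.29 in taPVAT and 1.17 in BAT. Some Cry1 values rest on few UMIs: 6 and 9 in myeloid cells of taPVAT replicates 1 and 2, and 6 and 6 in their B lymphocytes. Npas2 was lower in 13 of 13 pairs with UMIs in both libraries, and in the other 3 its replicate 2 library held no UMI. Clock was lower in 15 of 16 pairs, Dbp in 14 and Arntl in 13, with fibroblasts of both tissues and taPVAT B lymphocytes the 3 exceptions. Per1 was higher in 13 of 16. No share over all genes is given for these counts of pairs, so they are descriptions only.

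Per3 and Nr1d2 had mixed directions. In BAT, Per3 was lower in replicate 2 in 8 of 8 classes, while in taPVAT it was higher in 5 and lower in 3. In taPVAT, Nr1d2 was higher in replicate 2 in 7 of 8 classes, and in BAT it was lower in 6 of 8. In mural cells, the contractile cells of vessel walls, Per3 was 1.42-fold higher in taPVAT replicate 2 (counting interval 1.24 to 1.62) and 1.19-fold lower in BAT replicate 2 (1.06 to 1.35). With adipocyte RNA subtracted, mural Per3 was 3.41-fold higher in taPVAT and 1.06-fold higher in BAT. The difference between tissues was not tested.

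**Figure D2:**
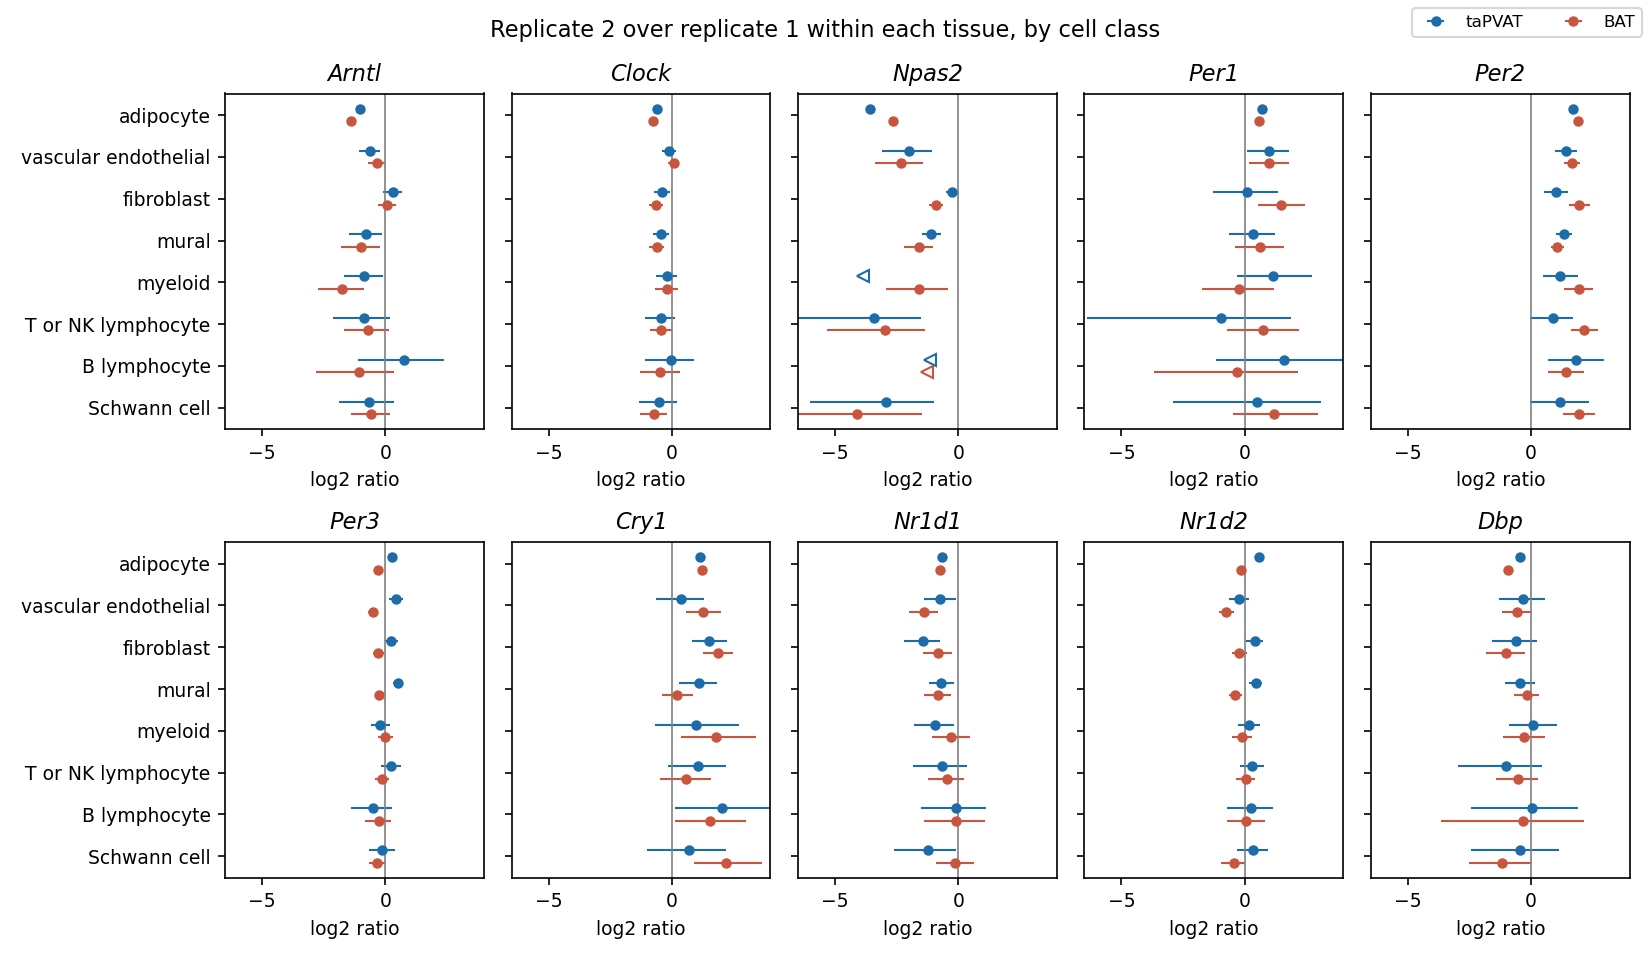
Log2 ratio of CPM, replicate 2 over replicate 1, for each clock gene (panels) in 8 cell classes (rows) of taPVAT (blue) and BAT (red); bars are 95% exact counting intervals, and open triangles mark upper bounds where replicate 2 held no UMI. Per2 and Cry1 lie right of 0 in every row and Nr1d1 left of 0, while fibroblast Arntl lies at or right of 0 in both tissues.

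These classes are not independent readings, because droplets of every class also held adipocyte RNA. The median of the adipocyte markers in another class, as a percent of their adipocyte level in the same library, was 29.8% to 58.8% in fibroblasts, 42.3% to 52.0% in vascular endothelial cells, 47.5% to 69.1% in mural cells and 49.4% to 70.7% in myeloid cells. It was 64.2% to 85.1% in B lymphocytes. Single markers spread widely around these medians. In taPVAT replicate 2 they ran from 21.9% to 129.8% in vascular endothelial cells and from 18.4% to 105.4% in fibroblasts. Values after subtraction rest on the median, so they are uncertain where little is left. Each library's adipocyte level was then subtracted in that proportion, and a ratio was formed where both libraries of a tissue were left above 0, in at most 14 pairs outside adipocytes. Per2 was higher in replicate 2 in 9 of 10 such pairs, among them vascular endothelial cells (2.38-fold in taPVAT, 2.59-fold in BAT), fibroblasts (3.49-fold and 4.62-fold), mural cells (3.12-fold and 1.39-fold) and myeloid cells (2.19-fold and 1.503-fold), and lower in BAT B lymphocytes (1.23-fold). Arntl was lower in 11 of 13 pairs, with fibroblasts of both tissues higher.

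Per1 was higher in 10 of 11 pairs after subtraction. The directions of Per2, Cry1, Nr1d1, Clock, Dbp, Npas2, Per3 and Nr1d2 depended on it in at least 1 pair. Cry1 was higher in 7 of 10 pairs, with fibroblasts at 5.12-fold and 4.76-fold, but 5.36-fold lower in taPVAT endothelial cells, 1.87-fold lower in BAT mural cells and 1.08-fold lower in taPVAT Schwann cells. Nr1d1, lower everywhere before, was lower in 4 of 9 pairs and higher in 5, with taPVAT endothelial cells at 1.83-fold and taPVAT mural cells at 1.45-fold. Clock turned from mostly lower to higher in 9 of 12 pairs, including endothelial cells (1.39-fold in taPVAT, 2.08-fold in BAT) and myeloid cells (2.02-fold and 1.72-fold). Dbp turned to higher in 10 of 11 pairs, including myeloid cells (3.16-fold and 2.42-fold) and BAT endothelial cells (61.3-fold). It was 8.76-fold lower in BAT fibroblasts. Nr1d1 was 125-fold lower in taPVAT Schwann cells. Folds this large come from remainders near 0, and folds after subtraction are given without a counting interval. Npas2, lower in all 13 pairs before, gave a ratio in 6 pairs, of which 4 were lower and 2 higher (taPVAT fibroblasts at 1.11-fold and BAT myeloid cells at 1.17-fold). Per3 was higher in 4 of 6 pairs, and Nr1d2 in 4 of 9. At the median marker share, no Npas2 was left in taPVAT replicate 1 endothelial cells, nor in B lymphocytes of any library. Where a direction turned or no ratio was left, what the unsubtracted sums show outside adipocytes cannot be told apart from adipocyte RNA.

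Fibroblasts held more Arntl and Npas2 per UMI than adipocytes in every library. Fibroblast Arntl was at 75.5 and 80.8 CPM in replicate 1 of taPVAT and BAT and at 92.3 and 83.8 CPM in replicate 2. Replicate 2 over replicate 1 was 1.22-fold in taPVAT (counting interval 0.932 to 1.59) and 1.04-fold in BAT (0.806 to 1.33), within counting error, and Arntl was not called in fibroblasts in any of 12 alternatives (adjusted p 0.395 to 0.92). Each value was above the adipocyte level, at 229% to 909% of it. Npas2 in fibroblasts was at 226 and 217 CPM in replicate 1 of taPVAT and BAT, and at 189.0 and 116 CPM in replicate 2. Its replicate 2 libraries were lower by 1.20-fold in taPVAT (counting interval 1.01 to 1.43) and 1.87-fold in BAT (1.55 to 2.27), against 12.1-fold and 6.20-fold in adipocytes. With adipocyte RNA subtracted, fibroblast Npas2 was at 168 and 187 CPM in taPVAT replicates 1 and 2 and at 193 and 112 CPM in BAT replicates 1 and 2.

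The difference between fibroblasts and adipocytes was tested as an interaction of class and number, with the library as a term. For Npas2 it was 2.40 ± 0.37 (SE) on the log2 scale (unadjusted p = 0.000167, edgeR adjusted p = 0.241), and for Arntl it was 1.25 ± 0.33 (SE; unadjusted p = 0.00521, edgeR adjusted p = 0.367). edgeR called 0% of the 15514 genes in this comparison, with 1445 genes at an unadjusted p under 0.05, so neither gene passed. Without a filter on low counts, where 1.13% of all genes were called, both passed, at 3.16e-08 for Npas2 and 0.0025 for Arntl (edgeR adjusted p). Over alternatives the adjusted p of Npas2 ranged from 3.16e-08 to 0.126.

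**Figure D3:**
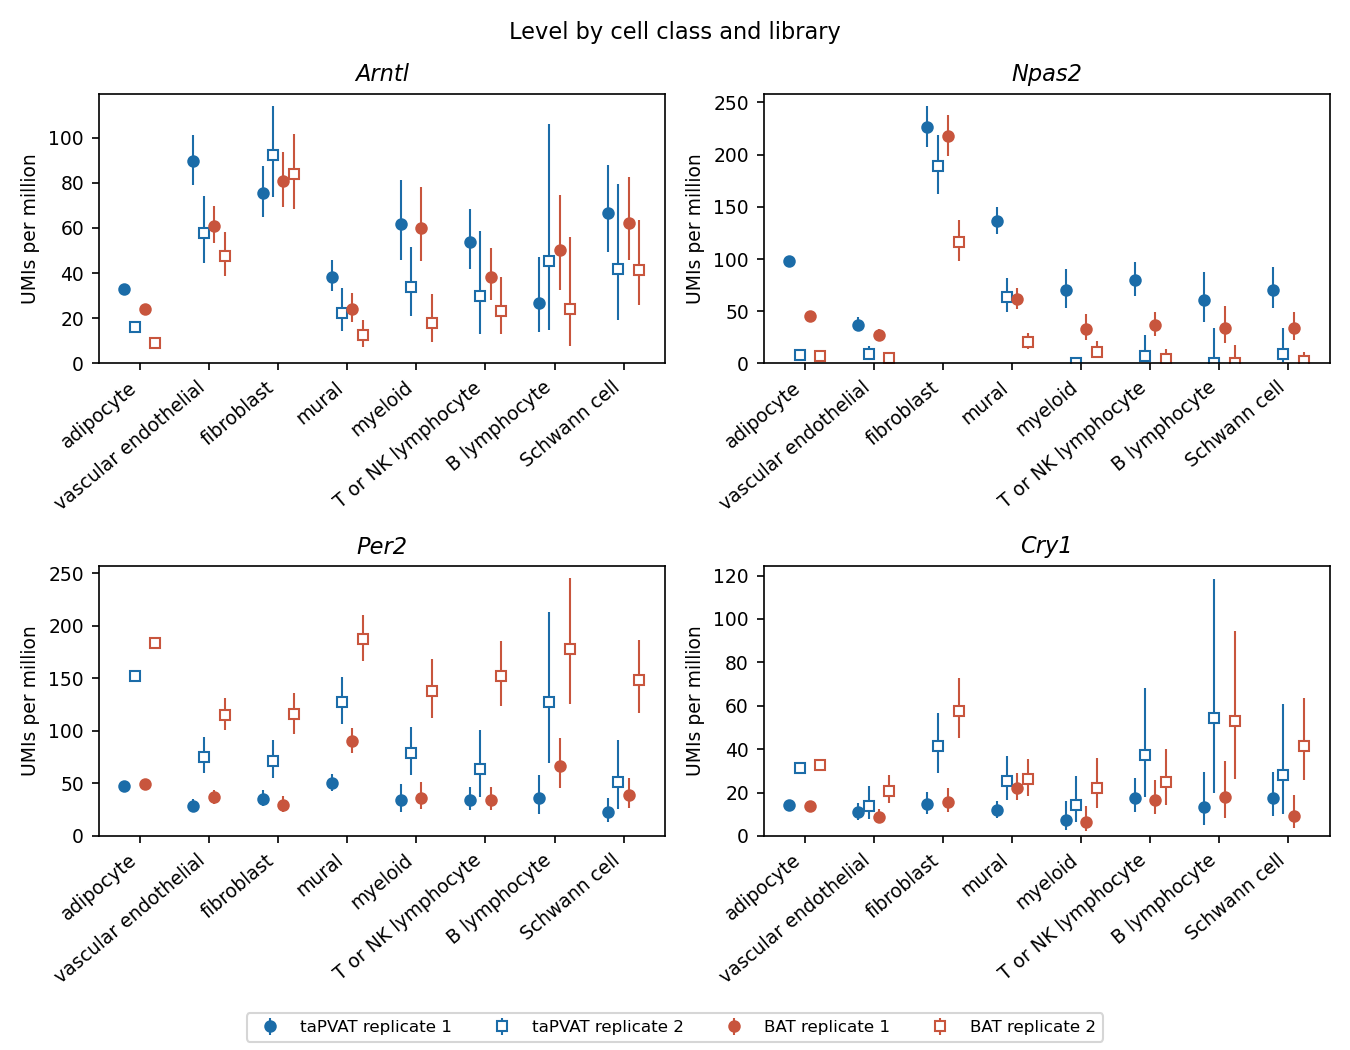
CPM of Arntl, Npas2, Per2 and Cry1 (panels) in 8 cell classes, by library; colours mark tissues, filled circles replicate 1, open squares replicate 2, and bars 95% counting intervals. Fibroblast Npas2 is at 116 to 226 CPM in all 4 libraries, while adipocyte Npas2 in replicate 2 is at 8.12 and 7.37 CPM.

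In vascular endothelial cells, replicate 2 over replicate 1 gave 3 calls among the 10 genes, against 12.4% of 10353 genes tested. Per2 was at 28.4 and 36.8 CPM in replicate 1 of taPVAT and BAT and at 75.4 and 115 CPM in replicate 2, and it rose by 1.67 ± 0.26 (SE) on the log2 scale (edgeR adjusted p = 0.00672). Npas2 was at 37.2 and 27.0 CPM in replicate 1 and at 9.31 and 5.34 CPM in replicate 2 (10 and 11 UMIs), and it fell by 2.12 ± 0.34 (SE; edgeR adjusted p = 0.00746) in these unsubtracted sums. After subtraction no endothelial Npas2 was left in taPVAT replicate 1, and in BAT it was 1.73-fold lower in replicate 2. Nr1d1 was at 39.9 and 40.7 CPM in replicate 1 and at 24.2 and 15.5 CPM in replicate 2, and it fell by 0.99 ± 0.23 (SE; edgeR adjusted p = 0.028). With adipocyte RNA subtracted, however, endothelial Nr1d1 was at only 2.22 CPM in taPVAT replicate 1 and 4.06 CPM in taPVAT replicate 2, the opposite direction, and none was left in BAT replicate 2. These remainders rest on the median marker share. Single markers ran from 35.3% to 114.5% in taPVAT replicate 1 and from 21.9% to 129.8% in taPVAT replicate 2, so the direction after subtraction is uncertain. With the tissue as a term, edgeR called 5 of the 10 (Cry1 and Per1 in addition), against 21.7% of all genes. Without BAT replicate 2 none of the 3 passed, with adjusted p of 0.0736 for Per2, 0.104 for Npas2 and 0.189 for Nr1d1, and Nr1d1 was called in 6 of 12 alternatives, which do not include DESeq2 (adjusted p = 0.138, with 4.06% of all genes called).

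Arntl and Clock were not called in endothelium. Endothelial Arntl was at 89.7 and 60.9 CPM in replicate 1 of taPVAT and BAT and at 57.7 and 47.6 CPM in replicate 2, or 253% to 516% of the adipocyte level. Endothelial Clock was at 136.0 and 118.2 CPM in replicate 1 and at 126.6 and 124.9 CPM in replicate 2, so the numbers overlapped. Of 15028 genes, edgeR called 2.93% in the endothelial minus adipocyte interaction and none of the 10 clock genes, of which 4 (Arntl, Clock, Npas2 and Nr1d2) had an unadjusted p under 0.05, as did 15.4% of all genes. The Clock interaction was 0.72 ± 0.19 (SE; edgeR adjusted p = 0.0726). Without a filter on low counts, Arntl (edgeR adjusted p = 0.0245) and Clock (0.0127) passed, among 4.71% of all genes.

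Fibroblasts and myeloid cells gave no clock gene call for replicate number in the edgeR fit used for the other classes. In fibroblasts, Cry1 and Per2 were each called in 3 of 12 alternatives: with the tissue as a term (4.98% of all genes called), with no filter on low counts (1.83%) and with DESeq2 (1.03%). In myeloid cells, Npas2 and Per2 were each called in 6 of 12 and Arntl in 4, with all 3 called with the tissue as a term (2.83% of all genes called), with no filter (2.63%), with at most 10% mitochondrial UMIs (5.58%) or without taPVAT replicate 2 (3.37%). Without taPVAT replicate 1 Per2 was called, and Npas2 without BAT replicate 1 or without BAT replicate 2. In fibroblasts edgeR called 0% of 9922 genes, with 1809 (18.2%) at an unadjusted p under 0.05, of which 4 were clock genes (Cry1, Dbp, Nr1d1 and Per2), and DESeq2 called 180 genes with Cry1 and Per2 among them. Fibroblast Cry1 was at 14.5 and 15.8 CPM in replicate 1 of taPVAT and BAT and at 41.3 and 57.8 CPM in replicate 2 (log2 fold change 1.79 ± 0.28 SE, edgeR adjusted p = 0.115). Fibroblast Per2 was at 35.4 and 29.8 CPM in replicate 1 and at 71.7 and 115.5 CPM in replicate 2 (1.61 ± 0.31 SE, edgeR adjusted p = 0.123). Neither gene's groups overlapped, but the same held for 8 of the 10 clock genes in fibroblasts, Cry1 and Per2 included. No share over all fibroblast genes is given for this pattern, so it is a description only. The median mitochondrial share of UMIs was also higher in replicate 2 in fibroblasts, in myeloid cells and in taPVAT vascular endothelial cells, and its part was not tested. Over all barcodes it was 8.02% and 7.82% in replicate 1 of taPVAT and BAT and 8.30% and 11.3% in replicate 2. In fibroblasts it was 14.3% and 14.7% in replicate 1 of taPVAT and BAT and 17.3% and 17.8% in replicate 2. In myeloid cells it was 14.2% and 17.0% in replicate 1 and 20.4% and 18.3% in replicate 2, and in vascular endothelial cells 18.2% in replicate 1 and 19.5% in replicate 2 of taPVAT.

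In myeloid cells edgeR called 0.212% of 8031 genes, and 4 of the 9 clock genes tested (Arntl, Cry1, Npas2 and Per2) had an unadjusted p under 0.05. Over all genes tested, 15.4% had one. DESeq2 called Per2 alone among the 10, against 0.559% of all genes. Myeloid Npas2 was at 70.1 CPM in taPVAT replicate 1 and had no UMI among 623651 in taPVAT replicate 2, where 3 UMIs would be 4.81 CPM. With adipocyte RNA subtracted at the median marker share (single markers 57.8% to 110.5%), 1.93 CPM was left in taPVAT replicate 1, under that limit. At the median share, no difference in myeloid Npas2 was thus detectable at this depth. At the lowest single marker share more Npas2 would be left in taPVAT replicate 1, so this reading is uncertain. In BAT it was at 33.3 and 11.1 CPM, of which 5.01 and 5.85 CPM were left. Myeloid Arntl was at 61.5 and 60.1 CPM in replicate 1 of taPVAT and BAT and at 33.7 and 18.0 CPM in replicate 2 (log2 fold change -1.24 ± 0.33 SE, edgeR adjusted p = 0.154). The myeloid minus adipocyte interaction called 0.463% of 14690 genes and no clock gene, and none of the 10 had an unadjusted p under 0.05.

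The tissue comparison, taPVAT over BAT, called no clock gene in any tested class. edgeR called 0% of 16069 genes in adipocytes, with 301 at an unadjusted p under 0.05, and DESeq2 called 57. It called 0% in vascular endothelial cells (182 genes at an unadjusted p under 0.05, and 4 by DESeq2), 0.0605% in fibroblasts and 0% in myeloid cells (83 at an unadjusted p under 0.05, and 2 by DESeq2). No clock gene had an unadjusted p under 0.05 in these 4 classes, and DESeq2 called none of the 10. In this fit the 2 libraries of a tissue carry the difference between replicate numbers as their spread: adipocyte Per2 was 99.95 ± 74.2 CPM (SD, n = 2) in taPVAT and 116 ± 94.4 CPM (SD, n = 2) in BAT.

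Set side by side within a replicate number, 6 of the 10 genes had the same tissue order at both numbers in adipocytes: Arntl, Npas2 and Nr1d1 were higher in taPVAT, and Per2, Per3 and Dbp in BAT. The order differed between numbers for Clock, Cry1, Nr1d2 and Per1. No share over all genes is given for this count, so it is a description only. Per3 was the only 1 of the 10 whose tissues did not overlap in adipocyte CPM, a pattern of 19.6% of genes tested. It was at 237.7 and 285.4 CPM in taPVAT and at 388.0 and 319.0 CPM in BAT, 0.613-fold in replicate 1 and 0.895-fold in replicate 2 (log2 fold change -0.38 ± 0.29 SE, edgeR unadjusted p = 0.237). Arntl was higher in taPVAT at both numbers, 1.37-fold in replicate 1 (counting interval 1.31 to 1.44) and 1.75-fold in replicate 2 (1.58 to 1.94), with a fitted log2 fold change of 0.60 ± 0.53 (SE) that was 0.02 without taPVAT replicate 1, 0.99 without taPVAT replicate 2, 1.36 without BAT replicate 1 and 0.09 without BAT replicate 2. Npas2 was 2.15-fold higher in taPVAT in replicate 1 (2.09 to 2.22) and 1.10-fold in replicate 2 (0.969 to 1.25). Without BAT replicate 1, Npas2 passed at 2.76 on the log2 scale (edgeR adjusted p = 0.000133), and without taPVAT replicate 1 it turned to -1.63. Dbp was lower in taPVAT at both numbers, 0.619-fold and 0.888-fold. Nr1d2 turned from 0.813-fold in replicate 1 to 1.36-fold in replicate 2.

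**Figure D4:**
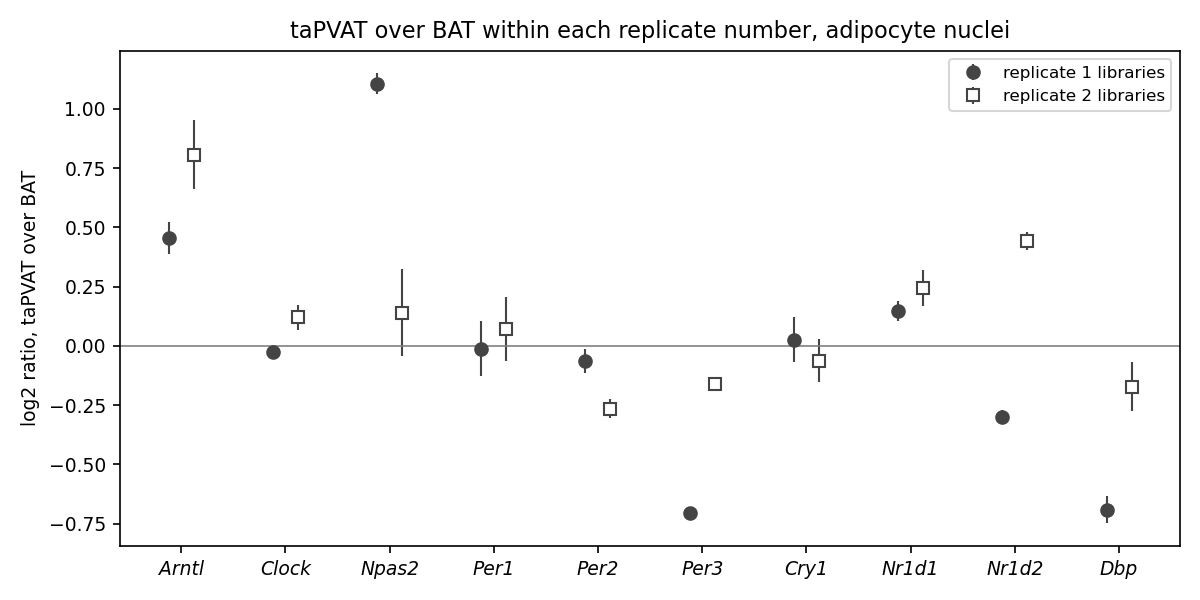
Log2 ratio of CPM, taPVAT over BAT, for the 10 clock genes in adipocyte nuclei, within the replicate 1 libraries (filled circles) and the replicate 2 libraries (open squares), with 95% exact counting intervals of 1 library against 1. Arntl lies above 0 and Per3 and Dbp below 0 at both numbers, while Nr1d2 changes side.

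Genes around the core clock were read from 5 lists with 50 further genes, in adipocytes and for replicate 2 over replicate 1. Among 12 other clock genes, 3 rose (Bhlhe40, Bhlhe41 and Nfil3) and none fell, with a median log2 fold change of 0.52 against 0.02 over all genes, of which 11.9% were called. Bhlhe40, which encodes the E-box repressor DEC1, was at 119.6 and 99.2 CPM in replicate 1 of taPVAT and BAT and at 388 and 423 CPM in replicate 2 (1.98 ± 0.17 SE on the log2 scale, edgeR adjusted p = 0.00902). Nfil3, which encodes the D-box repressor that opposes DBP, was at 33.1 and 30.4 CPM in replicate 1 and at 91.8 and 101.6 CPM in replicate 2 (1.70 ± 0.14 SE, edgeR adjusted p = 0.00841). Bhlhe41 passed at only 0.181 and 0.105 CPM in replicate 1 of taPVAT and BAT and 0.84 and 1.05 CPM in replicate 2. Rora, an activator of Arntl, was at 112 and 88.5 CPM in replicate 1 and at 181 and 135 CPM in replicate 2 and did not pass (edgeR adjusted p = 0.0761). Cry2 was at 88.3 to 97.2 CPM.

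Of 9 genes of clock protein turnover, Fbxw11, a subunit of the ligase that marks PER proteins for breakdown, rose by 0.76 ± 0.14 (SE) on the log2 scale (edgeR adjusted p = 0.0263) and none fell. Usp2, a deubiquitinase, was at 23.4 and 25.4 CPM in replicate 1 and at 45.6 and 32.1 CPM in replicate 2 (edgeR adjusted p = 0.0669). Btrc and Csnk2a1, the other 2 named from this list, did not pass. Of 10 clock output genes, none rose and Noct, a deadenylase, fell by 1.05 ± 0.16 (SE; edgeR adjusted p = 0.020), from 70.1 and 89.8 CPM in replicate 1 to 35.2 and 37.3 CPM in replicate 2. The 1 call each in the turnover and output lists is near the 11.9% of all genes. Nampt (adjusted p = 0.0719), Ppara (0.0912) and Lpin1 (0.159) did not pass in the same edgeR fit.

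Of 10 glucocorticoid-responsive genes, which include Per1, 5 rose (Cdkn1a, Errfi1, Klf9, Map3k6 and Per1) and Pdk4 fell, with a median of 0.71. Over all genes the median log2 fold change was 0.02, and 11.9% were called. Klf9, a transcription factor gene, rose by 1.39 ± 0.14 (SE) on the log2 scale (edgeR adjusted p = 0.0132), while Fkbp5, Tsc22d3, Zbtb16 and Sgk1 did not pass. Errfi1, an inhibitor of EGF receptor signalling, was at 52.2 and 23.7 CPM in replicate 1 and at 205 and 233 CPM in replicate 2. Pdk4, a brake on glucose oxidation, was at 707 and 1004 CPM in replicate 1 and at 270.3 and 207 CPM in replicate 2. Of 10 immediate early genes, 4 rose (Atf3, Egr3, Nr4a1 and Nr4a3), with a median of 0.45. Nr4a3, an orphan nuclear receptor gene, was at 44.9 and 33.2 CPM in replicate 1 and at 194 and 243 CPM in replicate 2 (2.57 ± 0.21 SE, edgeR adjusted p = 0.00841). Fos overlapped between numbers, at 23.7 and 6.42 CPM in replicate 1 and at 7.41 and 21.1 CPM in replicate 2. None of the 5 lists had a call for taPVAT over BAT in adipocytes, where edgeR called no gene.

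In vascular endothelial cells, where 12.4% of all genes were called, the same lists gave 2 calls of 6 tested for other clock genes (Bhlhe40 and Nfil3, both higher), 8 of 10 for glucocorticoid-responsive genes (7 higher, Pdk4 lower) and 7 of 9 for immediate early genes (all higher). Clock output genes gave 4 calls of 9 (Wee1 higher, Fmo2, Pfkfb3 and Ppara lower), and turnover genes gave 1 of 9 (Fbxw11, higher). Fibroblasts gave no call in the 5 lists, but edgeR called 0% of all 9922 genes there, so this does not set the lists apart. Myeloid cells, where 0.212% of all genes were called, gave 1 lower call among glucocorticoid-responsive genes and 1 higher call among immediate early genes.

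Over 16 sums (4 libraries by 4 tested classes, log2 of CPM plus 1, centred within each class), the genes most like Arntl among 5547 genes were Chd2 (Pearson r = 0.905), Atrx (0.885), Abcc1 (0.884), Smad6 (0.884) and Mocs1 (0.884). The genes most like Dbp were Dazap2 (0.962), Mark2 (0.930), Ano1 (0.907), Prkaca (0.899) and Abcd2 (0.898). Among the clock genes themselves, Per2 went with Cry1 (r = 0.945) and against Nr1d1 (-0.857), Clock (-0.812) and Arntl (-0.773). Arntl and Npas2 had an r of 0.666, which placed Npas2 only at rank 496 of 5547 genes in likeness to Arntl, with Clock at rank 685. These are descriptions: the 4 sums of a library share its depth, its animal and its adipocyte RNA.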

How the data were processed

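Raw UMI counts per gene and barcode were deposited by the authors for 4 nuclear libraries. The authors' matrices came from Cell Ranger 7.1.0, per the file headers, on the build Rnor_6.0, per the submitters' processing notes. The annotation is not given in the sources used here. Nuclei needed at least 500 detected genes. A class needed at least 3 marker UMIs from at least 2 markers at 10 times or more the library's marker share, and nuclei in more than 1 such class were left out (146 to 350 per library). Adipocytes passed no other class at 3 times and held at least 3 adipocyte marker UMIs at 0.5 times or more. These levels were set on marker purity in these data. The 10 genes and the lists were chosen with earlier results of these data known.

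UMIs were summed per library and class and tested with edgeR 4.0.16 (quasi-likelihood, TMM scaling, filterByExpr, Benjamini-Hochberg over all genes, threshold 0.05) in R 4.3.3 for taPVAT over BAT, for replicate 2 over replicate 1, and for class by number with the library as a term. Alternatives were DESeq2 1.42.0, no filter, leaving out each library, scaling without AC134224.3 and 37 mitochondrial genes, at least 1000 genes, at most 10% mitochondrial UMIs, a stricter gate (5 UMIs from 3 markers), Scrublet calls left out (scanpy 1.11.5; in BAT replicate 1 it called 0 nuclei, so the highest 18.5% of scores were left out there), the tissue or replicate number as a term, and subtraction of adipocyte RNA. Counting intervals are exact 95% intervals (Poisson for levels, Clopper-Pearson for ratios of 2 libraries) and cover counting error only. Named list genes are up to 4 per list with the smallest p for replicate number in adipocytes; other list members named were chosen after their values were seen. For likeness, genes needed a mean of 20 CPM in adipocytes. The fit was tested on simulated data with known changes. The simulated libraries were independent and held no tissue difference, so this does not show how the replicate number test behaves on these libraries.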

Additional observations from a re-analysis of the deposited data

Results flagged for a closer look

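Nr1d2 and Per3 had ratios of opposite sign in the 2 tissues between replicate numbers. In adipocytes, the log2 ratio of replicate 2 over replicate 1 for Nr1d2 was 0.58 in taPVAT and -0.16 in BAT. For Per3 it was 0.26 in taPVAT and -0.28 in BAT. Each value is 1 library against 1, and the difference between tissues was not tested. The other 8 clock genes had the same direction in both tissues.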

How the results depend on the processing

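In adipocytes, Per2, Cry1 and Npas2 kept their direction and their call for replicate number in all 12 alternatives, while Per1 and Clock lost theirs when libraries were left out, as given above. Genes called over the whole table moved more. The fit with the replicate number as a block called 346 genes for taPVAT over BAT in adipocytes, 138 in vascular endothelial cells, 159 in fibroblasts and 13 in myeloid cells, with none of the clock genes, of which 3 in adipocytes (Arntl, Dbp and Npas2) and 4 in endothelial cells (Arntl, Dbp, Per2 and Per3) had an unadjusted p under 0.05 (lowest 0.00135 and 0.0058), as did 8.25% and 8.75% of all genes. The same block fit, read for replicate number with tissue as a term, called 3682, 2247, 494 and 227 genes in that order of classes, and 8, 5, 2 and 3 of the clock genes. Deviations of same-numbered libraries from their tissue means correlated at 0.702 over 16069 genes, but the labels do not say that a number pairs libraries and there are only 2 pairs. DESeq2 called 57, 4, 41 and 2 genes for tissue, and 3159, 710, 180 and 88 for number. Without the low count filter the counts were 34, 33, 165 and 17 for tissue, 2024 (vascular endothelial), 319 (fibroblast) and 414 (myeloid) for number, and 1074, 259 and 108 for the endothelial, fibroblast and myeloid interactions. With at least 1000 genes they were 2 for tissue in fibroblasts, and for number 826 in endothelial and 40 in myeloid cells. With at most 10% mitochondrial UMIs they were 1 for tissue in fibroblasts, and for number 272 in endothelial cells, 3 in fibroblasts and 360 in myeloid cells. The stricter gate gave 2 and leaving out Scrublet calls 0 for tissue in fibroblasts, and the latter gave 8 for number in myeloid cells. Leaving out 1 library gave 259 to 1778 genes for number in adipocytes, 19 to 786 in endothelial cells, 0 to 15 in fibroblasts and 28 to 297 in myeloid cells. For tissue it gave 0 to 106, 4 to 20, 51 to 109 and 0 to 17. The cause was not tested for any of these. Per3 for number in adipocytes was -0.0077 with DESeq2 and -0.28 to 0.45 with 1 library left out. For taPVAT over BAT in adipocytes, leaving out 1 library gave -0.25 to 0.41 for Clock, -0.74 to 0.81 for Cry1, -0.82 to 0.0126 for Dbp, -1.63 to 2.76 for Npas2, -0.12 to 0.56 for Nr1d1, -0.23 to 0.42 for Nr1d2, -0.36 to 0.46 for Per1 and -1.32 to 1.12 for Per2. With 2 libraries a group, and 1 where a library is left out and assumed to vary like the others, small differences cannot be told from library spread, and Per1 and Cry1 in the small classes rest on few UMIs.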

Other observations

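Mesothelial and lymphatic endothelial cells reached 20 nuclei in each library in taPVAT only. In mesothelial cells (233 nuclei in replicate 1, 51 in replicate 2), Npas2 was at 114 CPM in replicate 1 and 100.3 CPM in replicate 2, a ratio of 0.879 (counting interval 0.461 to 1.56), while Npas2 in adipocytes of the same libraries was at 98.2 and 8.12 CPM. Mesothelial Per2 was at 29.5 and 128.9 CPM, 4.37-fold higher in replicate 2 (2.21 to 8.53; 22 and 18 UMIs). In lymphatic endothelial cells (276 and 29 nuclei), Cry1 was 3.87-fold higher in replicate 2 (1.11 to 11.1, from 16 and 5 UMIs). Lymphatic Arntl had 45 UMIs in replicate 1 and 0 in replicate 2, within counting error (counting interval of the ratio 0 to 1.06). No adipocyte RNA was subtracted in these 2 classes. Mesothelial nuclei held a mean of 51.3 adipocyte marker UMIs in replicate 1 and 24.4 in replicate 2, and its part in the Npas2 ratio was not tested. Each of these values is 1 library against 1, with no test.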
